A study of Homo sapiens with 9 samples.

Results

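Phase II conjugating enzymes join a drug, hormone or metabolite to a small polar group, and 6 human genes of this kind were chosen by symbol: SULT2A1, SULT1C2, GSTA4, GSTO1, NAT1 and TPMT. Of these 6 genes, 4 were measured among the 9784 genes of the array table, each by 1 probe set: SULT2A1, GSTA4, GSTO1 and TPMT. SULT1C2 and NAT1 were not analysed here. The arrays compared Huh7, an established human hepatocellular carcinoma cell line, with 2 of its descendants selected for growth in sorafenib, a drug against advanced liver cancer that inhibits several kinases. Huh7-R-A7 was raised from 1 colony of the resistant cells, so this clone stands for a single lineage. Huh7-R is the uncloned resistant pool from which the clone was taken, and Huh7-S is the untreated, sensitive parent. Both resistant lines had been pulsed with 10 µM sorafenib for 4 h weekly over 6 weeks, then kept in the drug at doses raised to 6 µM, and were held without it for 5 to 7 days before use. Each line was measured on 3 arrays, which the study's methods describe as biological replicates. The clone arrays were grouped by their titles, although 2 of the 3 carry other clone names in their descriptions.

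Conjugation follows or bypasses oxidation by cytochromes P450 and usually makes a compound more water soluble and easier to excrete in bile or urine. Sulfotransferases use the sulfate donor PAPS, glucuronosyltransferases use UDP-glucuronic acid, glutathione transferases use glutathione, N-acetyltransferases use acetyl-CoA and the methyltransferases use S-adenosylmethionine. Hepatocytes carry many of these enzymes, and several are read as signs of a differentiated liver cell. Sorafenib itself is known to be glucuronidated in the liver.

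The promoters of SULT2A1, GSTA4 and GSTO1 are shown because signals of all 3 genes were lower in the clone than in the parent, while their upstream sequences differ. Each line gives the 250 bases before the RefSeq transcription start site, from assembly GRCh38.p14, with matches to the searched motifs in capitals. These lie at chr19:47886316-47886565 on the minus strand for SULT2A1, at chr6:52995285-52995534 on the minus strand for GSTA4 and at chr10:104254642-104254891 on the plus strand for GSTO1.
SULT2A1: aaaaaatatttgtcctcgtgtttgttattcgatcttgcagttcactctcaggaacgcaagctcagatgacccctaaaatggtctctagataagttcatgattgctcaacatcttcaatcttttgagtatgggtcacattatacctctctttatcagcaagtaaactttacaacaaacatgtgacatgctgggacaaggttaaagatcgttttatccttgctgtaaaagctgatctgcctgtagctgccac
GSTA4: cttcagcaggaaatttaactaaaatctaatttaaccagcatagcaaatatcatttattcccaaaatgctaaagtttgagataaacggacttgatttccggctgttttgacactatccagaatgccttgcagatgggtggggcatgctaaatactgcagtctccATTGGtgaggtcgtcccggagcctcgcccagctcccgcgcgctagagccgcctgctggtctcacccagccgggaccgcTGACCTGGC
GSTO1: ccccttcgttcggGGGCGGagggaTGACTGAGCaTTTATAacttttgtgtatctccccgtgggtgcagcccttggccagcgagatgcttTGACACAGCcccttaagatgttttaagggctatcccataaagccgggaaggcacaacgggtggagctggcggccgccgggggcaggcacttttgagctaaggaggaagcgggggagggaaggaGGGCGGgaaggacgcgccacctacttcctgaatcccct
The motifs searched on both strands were TGACNNNGC (the core of the antioxidant response element), GCGTG (the core of the dioxin response element), GGGCGG (a GC box), TATAAA and CCAAT. No 2 of these overlapped in the printed sequences. None of the 5 was present in the SULT2A1 window, whose GC content was 39.2%, and 11.4% of the 35116 promoters of the same length had a lower one. The GSTA4 window, at 50.4% GC, held TGACNNNGC once, as the last 9 bases before the start site, and CCAAT once, on the opposite strand (printed as ATTGG). GSTO1 had 60% GC, and its window held TGACNNNGC 2 times, GGGCGG 2 times and TATAAA 1 time, the last on the opposite strand. Both TPMT start sites had windows richer in GC, at 73.6% and 78.4%, with 4 and 6 GC boxes and no other motif. Over all promoters, 10.9% held TGACNNNGC, 32.2% held GCGTG, 42.6% held GGGCGG, 10.7% held TATAAA and 32% held CCAAT. These matches describe the letters only, and the arrays did not measure binding.

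SULT2A1, the hydroxysteroid sulfotransferase of liver and adrenal that sulfates dehydroepiandrosterone and bile acids, had the most unequal signal of the 4 genes. All values here are RMA signals on the log2 scale, and the study's methods treated signals under log2 6 as noise. SULT2A1 read 3.55, 4.33 and 3.70 on the Huh7-R-A7 arrays, 4.17, 4.24 and 3.62 on the Huh7-R arrays, and 8.59, 8.14 and 7.58 on the Huh7-S arrays. All 6 resistant arrays lay below the noise limit and all 3 parental arrays lay above it, with no overlap. The study's methods also filtered out genes under this limit on 85% of arrays. SULT2A1 is therefore in the table only through its parental arrays. Clone and parent differed by -4.24 on the log2 scale (SE 0.31, 95% interval -4.96 to -3.53, limma adjusted p = 3.3e-05), and pool and parent by -4.09 (SE 0.31, interval -4.80 to -3.38, adjusted p = 4.1e-05). Since the resistant signals were in the noise, the transcript was at least 4.29-fold lower in Huh7-R-A7 and at least 4.29-fold lower in Huh7-R than in Huh7-S, a bound taken with the resistant arrays set to log2 6. Between clone and pool the difference of -0.15 (interval -0.87 to 0.56, adjusted p = 0.83) lies wholly below the noise limit and has no fold. In bulk RNA, fewer expressing cells and less RNA per cell cannot be told apart.

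GSTA4, the alpha-class glutathione transferase that prefers 4-hydroxynonenal and other products of lipid peroxidation, fell in both resistant lines. Its signal was 7.34, 7.75 and 7.86 on the Huh7-R-A7 arrays, 7.98, 7.96 and 7.86 on the Huh7-R arrays, and 9.07, 8.65 and 8.62 on the Huh7-S arrays. Every resistant array was below every parental one. The difference was -1.13 in the clone (SE 0.16, interval -1.50 to -0.76, adjusted p = 0.00091), a 2.19-fold lower signal than in the parent. In the pool it was -0.85 (SE 0.16, interval -1.22 to -0.47, adjusted p = 0.0037), or 1.8-fold lower. The clone arrays averaged 7.65 ± 0.27 and the pool arrays 7.94 ± 0.06 (SD, n = 3 each), and the highest clone array and lowest pool array both read 7.86, with the clone array lower only beyond the printed digits. That difference of -0.28 did not pass (interval -0.66 to 0.09, adjusted p = 0.35), so a clone level up to 0.66 lower or 0.09 higher on the log2 scale remains within the interval. The order of means was Huh7-S highest, then Huh7-R, then Huh7-R-A7, and the last 2 did not differ beyond their spread.

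GSTO1, an omega-class enzyme with thioltransferase and dehydroascorbate reductase activity, had a small difference that passed in the clone alone. It read 6.96, 7.25 and 7.21 on the Huh7-R-A7 arrays, 7.28, 7.29 and 7.29 on the Huh7-R arrays, and 7.29, 7.77 and 7.46 on the Huh7-S arrays. The clone arrays lay below all others, and the pool reached the lowest parental array: Huh7-R replicates 2 and 3 and Huh7-S replicate 1 held exactly the same value, as at least 2 arrays did in 60% of probe sets. Signal was 1.29-fold lower in Huh7-R-A7 than in Huh7-S (-0.36, SE 0.13, interval -0.66 to -0.07, adjusted p = 0.048). This call was lost when any one array other than Huh7-S replicate 1 was left out, with adjusted p between 0.062 and 0.15, and with the 6 arrays of these lines alone (0.11), median centring (0.097) or cyclic loess (0.08). Pool and parent differed by -0.22 (interval -0.51 to 0.07, adjusted p = 0.19) and clone and pool by -0.15 (interval -0.44 to 0.15, adjusted p = 0.56), neither beyond the spread.

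TPMT, the S-methyltransferase that inactivates thiopurine drugs, was the one gene of the 4 that separated the clone from the pool. Its signal was 9.79, 9.77 and 9.81 on the Huh7-R-A7 arrays, 9.22, 9.18 and 9.19 on the Huh7-R arrays, and 9.92, 9.52 and 9.50 on the Huh7-S arrays. The clone arrays lay above all pool arrays and inside the range of the parent, and the pool arrays lay below both other groups. TPMT was 1.51-fold higher in Huh7-R-A7 than in Huh7-R (0.59, SE 0.11, interval 0.35 to 0.84, adjusted p = 0.015) and 1.37-fold lower in Huh7-R than in Huh7-S (-0.45, SE 0.11, interval -0.70 to -0.21, adjusted p = 0.0099). Clone and parent differed by 0.14 (interval -0.11 to 0.39, adjusted p = 0.32). The call between clone and pool was lost without clone replicate 2 or 3 or pool replicate 2 or 3, with adjusted p of 0.051, 0.055, 0.062 and 0.061, while the difference lay between 0.59 and 0.61 when any one array was left out. TPMT has a processed pseudogene in the genome, and how far the probes separate them was not examined.

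**Figure D1:**
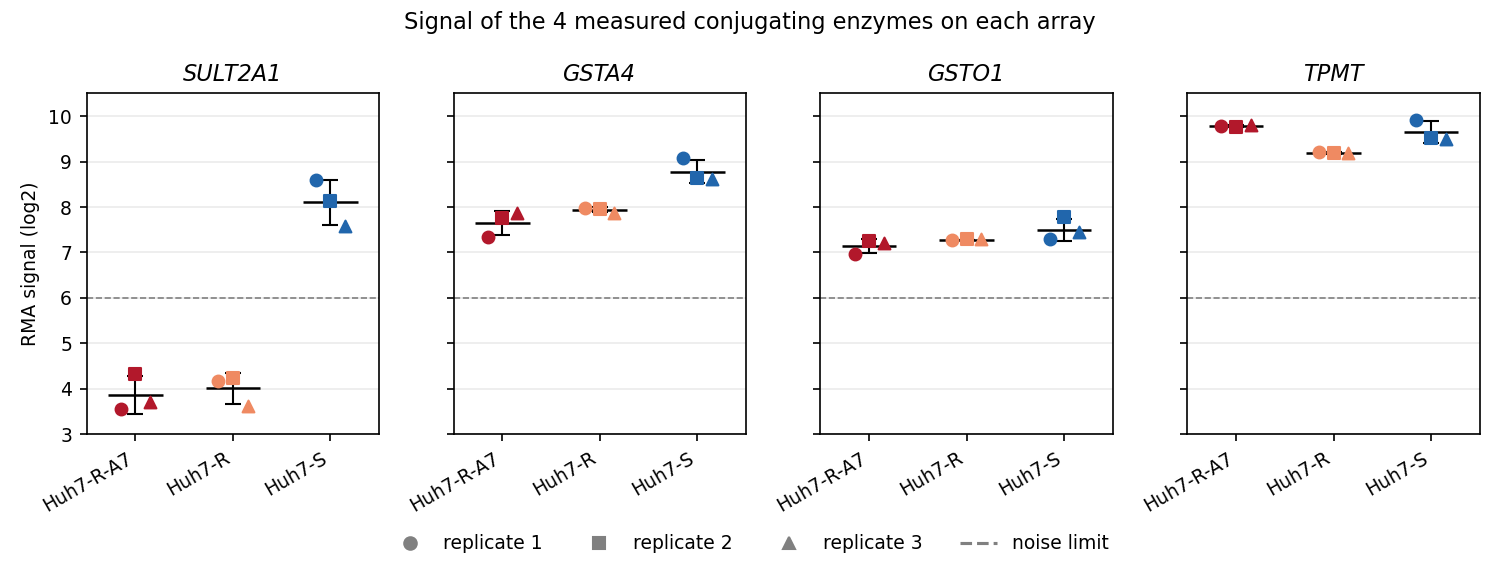
RMA signal (log2, vertical axis) of SULT2A1, GSTA4, GSTO1 and TPMT on each array, with Huh7-R-A7, Huh7-R and Huh7-S from left to right, replicates by marker shape, the mean as a horizontal line and SD as error bars (n = 3). The dashed line is the noise limit of log2 6, below which all 6 resistant SULT2A1 arrays lie. The TPMT clone arrays lie between 9.77 and 9.81, above the pool arrays at 9.18 to 9.22.

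Counted together, 3 of the 4 measured genes were lower in Huh7-R-A7 than in Huh7-S (SULT2A1, GSTA4 and GSTO1) and none was higher, where 24.6% of all 9784 genes were called lower and 42.7% were called in either direction. In Huh7-R, 3 of 4 were lower than in Huh7-S (SULT2A1, GSTA4 and TPMT), where 26.2% of all genes were called lower and 45.1% in either direction. These comparisons share their 3 Huh7-S arrays. Between clone and pool, 1 of 4 was higher (TPMT), where 4.11% of all genes were called higher, 4.52% lower and 8.63% in either direction. All arrays of 3 of the 4 genes lay below the parent's in the clone and of 3 of 4 in the pool, where this held for 30.2% and 30.1% of all genes. Clone and pool arrays did not overlap for 3 of the 4, with TPMT higher and GSTA4 and GSTO1 lower, where 31.4% of all genes did not overlap in either direction. The median difference of the 4 genes was -0.75, -0.65 and -0.15 in that order of comparisons, beside medians near 0 over all genes (-0.035, -0.033 and 0.0046). A fall of at least 2-fold that passed was found for 5.69% of genes in the clone and 5.77% in the pool, and SULT2A1 met it in both lines and GSTA4 in the clone.

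Huh7-S replicate 1 stood apart from the other parental arrays, with which it correlated at 0.9771 and 0.9764 across genes, while other pairs within a line correlated at 0.9932 to 0.9976. In that array SULT2A1 was 0.73 above the mean of the other parental arrays, GSTA4 0.44 above, TPMT 0.41 above and GSTO1 0.33 below, on the log2 scale. Deviations at least that large were found for 7.34%, 16.4%, 17.8% and 24.5% of all genes. Without it, SULT2A1 still differed by -4.00 in Huh7-R-A7 and -3.85 in Huh7-R (adjusted p = 8.2e-05 and 1e-04), and GSTA4 by -0.98 and -0.70 (adjusted p = 0.0016 and 0.007). GSTO1 was -0.47 in the clone (adjusted p = 0.015) and -0.33 in the pool, which did not pass (adjusted p = 0.055). TPMT changed its call: the clone was then higher than the parent by 0.28 (SE 0.04, interval 0.18 to 0.37, adjusted p = 0.0014), the pool was still lower (-0.32, adjusted p = 0.00079), and the clone and pool differed by 0.59 (SE 0.04, adjusted p = 0.00028). All 4 genes thus passed in the clone without this array, 3 lower and 1 higher, where 45.6% of all genes passed. The same 3 as with all arrays passed in the pool, where 47.1% of genes did.

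**Figure D2:**
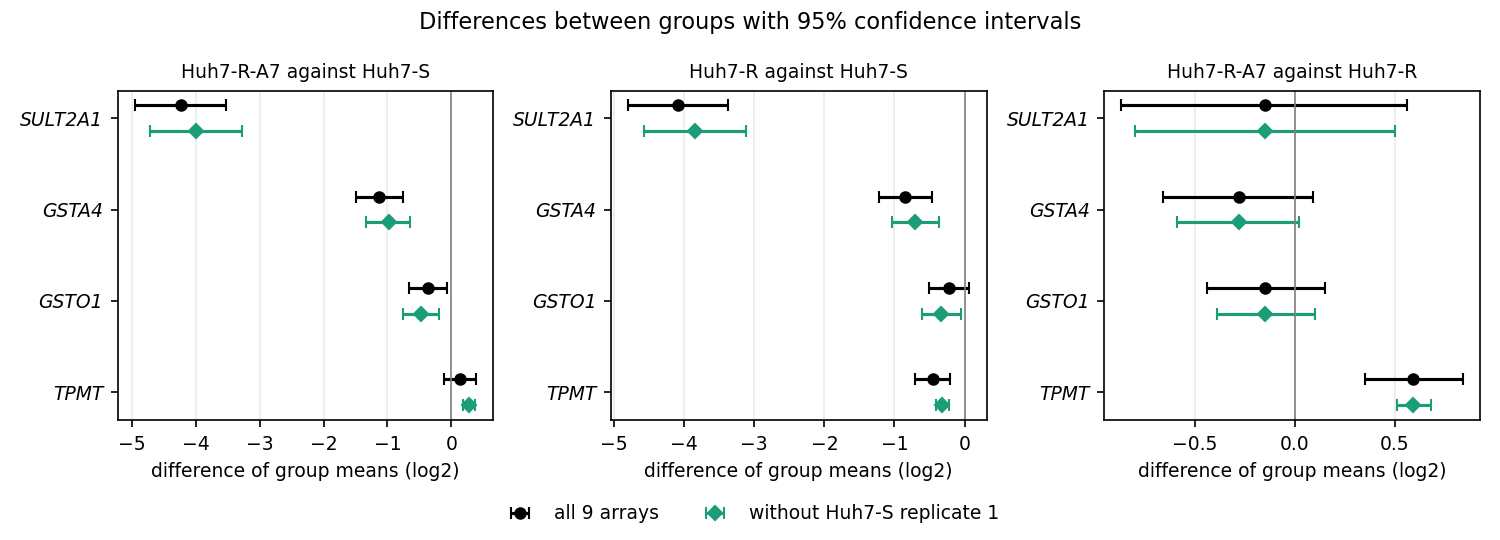
Difference of group means (log2, horizontal axis) for each of the 4 genes in Huh7-R-A7 against Huh7-S, Huh7-R against Huh7-S and Huh7-R-A7 against Huh7-R, with 95% confidence intervals, from all 9 arrays (black circles) and without Huh7-S replicate 1 (green diamonds). SULT2A1 lies near -4 against the parent in both lines, and the TPMT interval in the clone against the parent includes 0 with all arrays and runs from 0.18 to 0.37 without that array.

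Across the 9 arrays the SULT2A1 and GSTA4 signals ran closest to each other among pairs of the 4 genes, with a Pearson correlation of 0.94 that is set largely by the gap between parental and resistant arrays. TPMT had the lowest correlations with the others, 0.27 with SULT2A1, 0.14 with GSTA4 and -0.25 with GSTO1 over the same 9 arrays. Among all genes, the profiles most like that of SULT2A1 were UNC13B, CPSF4 and ZNF445 (r = 0.996, 0.995 and 0.994). For GSTA4 they were HINT2, HSD17B4 and VAV2 (0.986, 0.986 and 0.985), and for GSTO1 TRPV4, FAM234A and UGGT2 (0.982, 0.979 and 0.976). Those most like TPMT were WDCP, SEPHS1 and TMEM230 (0.97, 0.963 and 0.961), and WDCP averaged 8.34 in the clone, 7.71 in the pool and 8.17 in the parent. The arrays share 3 lines and their replicates, so these values describe likeness of pattern only.

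A list of 82 conjugating enzymes in 5 classes, which includes the 6 genes above, had 28 members measured. In Huh7-R-A7 against Huh7-S, 4 were higher, 11 lower and 13 did not pass (53.6% called, beside 42.7% of all genes, median -0.14). The counts were also 4 higher, 11 lower and 13 not passing in Huh7-R (beside 45.1% of all genes, median -0.07). Without Huh7-S replicate 1 they were 7 higher and 12 lower in the clone and 4 and 13 in the pool, beside 45.6% and 47.1% of all genes called. Both measured sulfotransferases were lower in both lines. The genes listed as glucuronosyltransferases that passed, with UGT8 listed by family only, were all higher.

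SULT1C4, a sulfotransferase of phenols best known from fetal tissue, was the other measured member of the SULT2A1 class. It averaged 10.47 in Huh7-R-A7 against 11.01 in Huh7-S (-0.53, SE 0.08, adjusted p = 0.0016). In Huh7-R it averaged 9.06 (-1.95 against the parent, SE 0.08, adjusted p = 3.3e-06), so the clone was 2.66-fold above the pool (adjusted p = 0.00012). SULT1C4 thus lay well above the noise limit in every line, unlike SULT2A1. PAPSS2, a synthase of the sulfate donor PAPS, was higher, by 1.99 in the clone (3.97-fold, adjusted p = 0.00027) and 2.26 in the pool (4.8-fold, adjusted p = 0.00015). Lower SULT2A1 signal and higher PAPSS2 signal were therefore found on the same arrays. PAPSS1, the other measured PAPS synthase, passed in neither line (-0.06 and -0.01, adjusted p = 0.45 and 0.91). Of 13 measured genes listed for donor supply, 1 was higher and 5 lower in the clone. In the pool 2 were higher and 4 lower. The share called was 46.2% in each line, beside 42.7% and 45.1% of all genes. SUMF1, which activates sulfatases, and ARSB, a lysosomal sulfatase, had the largest differences in the clone among 6 measured deconjugating genes. Of these 6, 2 were lower in the clone and 3 in the pool, where 24.6% and 26.2% of all genes were called lower. SUMF1 was at least 1.71-fold lower in the clone and at least 1.7-fold lower in the pool (adjusted p = 0.0001 and 0.0002), with both resistant means below the noise limit. ARSB differed by -0.41 and -0.36 (adjusted p = 0.015 and 0.023), and GUSB, the beta-glucuronidase, by -0.16 in the clone, which did not pass (adjusted p = 0.22), and -0.44 in the pool (adjusted p = 0.0086).

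Among the 11 measured glutathione transferases, 4 were lower and none higher in each resistant line, where the share of all genes called lower was 24.6% and 26.2%. In the clone these were GSTA4, GSTO1, MGST1 and GSTP1. In the pool they were GSTA4, GSTM3, MGST1 and MGST2. GSTA4 had the largest difference of the class in the clone, and GSTM3, a mu-class enzyme, had the largest in the pool at -1.16 (SE 0.19, adjusted p = 0.002) beside -0.44 in the clone (adjusted p = 0.11). Without Huh7-S replicate 1, GSTM3 was lower in the clone as well (-0.67, adjusted p = 0.0041), and 5 of the 11 were lower in each line. MGST1, the microsomal enzyme, differed by -0.40 in the clone and -0.37 in the pool (adjusted p = 0.024 and 0.032). GSTM genes are close paralogs, and how far their probes separate them was not examined. GCLM, the modifier subunit of the enzyme that limits glutathione synthesis, was 3.81-fold lower in Huh7-R-A7 and 3.07-fold lower in Huh7-R than in Huh7-S (-1.93 and -1.62, adjusted p = 2.2e-05 and 5.3e-05).

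Of the 6 measured small-molecule methyltransferases, the class of TPMT, 4 were lower in each resistant line and none was higher, where 24.6% of all genes were called lower in the clone and 26.2% in the pool. TMT1B, an alkyl thiol methyltransferase, had the largest difference, -2.75 in the clone (6.74-fold lower, adjusted p = 4.5e-05) and -3.03 in the pool (8.19-fold lower, adjusted p = 3e-05). TMT1A, its close relative, differed by -1.56 in the clone (adjusted p = 0.022), and its -1.15 in the pool did not pass (adjusted p = 0.066). Without Huh7-S replicate 1, where TMT1A read 9.01, these were -0.99 and -0.58, and both passed (adjusted p = 0.0045 and 0.04). GAMT, which makes creatine, differed by -1.38 in the clone and -0.87 in the pool (adjusted p = 0.00067 and 0.0061). AS3MT, the arsenite methyltransferase, had the clone between pool and parent: it averaged 10.36 in Huh7-R-A7, 9.62 in Huh7-R and 11.30 in Huh7-S, and all 3 pairs passed. AS3MT and TPMT were thus both higher in the clone than in the pool, by 0.75 and 0.59. They were the 2 methyltransferases of 6 that passed in that comparison, where 4.11% of all genes were called higher and 8.63% in either direction. HNMT, of the same class, went the other way there, at -0.63, and did not pass (adjusted p = 0.16). Without Huh7-S replicate 1 HNMT was called lower in the clone than in the pool (adjusted p = 0.012). The list joins N-acetyltransferases and amino acid conjugation in 1 group, whose one measured gene was ACSM3, an acyl-CoA synthetase. No N-acetyltransferase was analysed. ACSM3 differed by -1.07 in the clone and -1.19 in the pool (adjusted p = 0.0023 and 0.0013). It was at least 1.37-fold lower in both, with both resistant means below the noise limit.

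The 6 chosen genes include no glucuronosyltransferase. Of 8 measured genes listed in that class, 4 were higher in each line (UGT2A3, UGT2B15, UGT2B17 and UGT8), none was lower and 4 did not pass. UGT8 is in the list by gene family, as it makes galactosylceramide and is not itself a glucuronosyltransferase. Over all genes 18% were called higher in the clone and 19% in the pool. Without Huh7-S replicate 1, 6 of the 8 were higher in the clone, with UGT2B7 (0.97, adjusted p = 0.039) and UGT2B11 (1.80, adjusted p = 0.032) added. UGT2B7 means lay below the noise limit in every line, as did the remaining parental arrays of UGT2B11. In the pool 4 were then higher, with UGT2B4 (1.28) added and UGT2B17 lost. Of all genes, 45.6% and 47.1% were then called in either direction. UGT2B15, which conjugates androgens and drugs, read 8.20, 9.41 and 9.83 on the Huh7-R-A7 arrays, 7.30, 8.44 and 8.27 on the Huh7-R arrays, and 6.69, 6.28 and 6.39 on the Huh7-S arrays. It was 6.46-fold higher in the clone than in the parent (2.69, SE 0.44, adjusted p = 0.0019) and 2.93-fold higher in the pool (1.55, SE 0.44, adjusted p = 0.024). Replicate 1 was the lowest array of both resistant lines, and no resistant array overlapped the parent. UGT2A3, whose parental mean lay below the noise limit, was at least 4.36-fold higher in the clone and at least 2.31-fold higher in the pool (adjusted p = 0.0012 and 0.0063). This gene is in the filtered table only through its resistant arrays. UGT8, which makes galactosylceramide, was 6.28-fold higher in the clone and 3.44-fold higher in the pool (adjusted p = 2.8e-05 and 0.0002). UGT2B17, an androgen-conjugating enzyme with a parental mean below the noise limit, was at least 1.62-fold higher in the clone (adjusted p = 0.0039). In the pool its mean was below the noise limit too, with 1 array above it at 6.14. The call there (adjusted p = 0.047) therefore has no fold, and it was lost without Huh7-S replicate 1 (adjusted p = 0.076). Like UGT2A3, UGT2B17 is in the filtered table only through its resistant arrays. UGT2B genes are near-identical copies in 1 cluster, so each value may include signal from its neighbours. SLC35D1, a carrier of UDP-glucuronic acid into the endoplasmic reticulum, differed by -1.03 in the clone and -0.87 in the pool (adjusted p = 0.011 and 0.022).

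**Figure D3:**
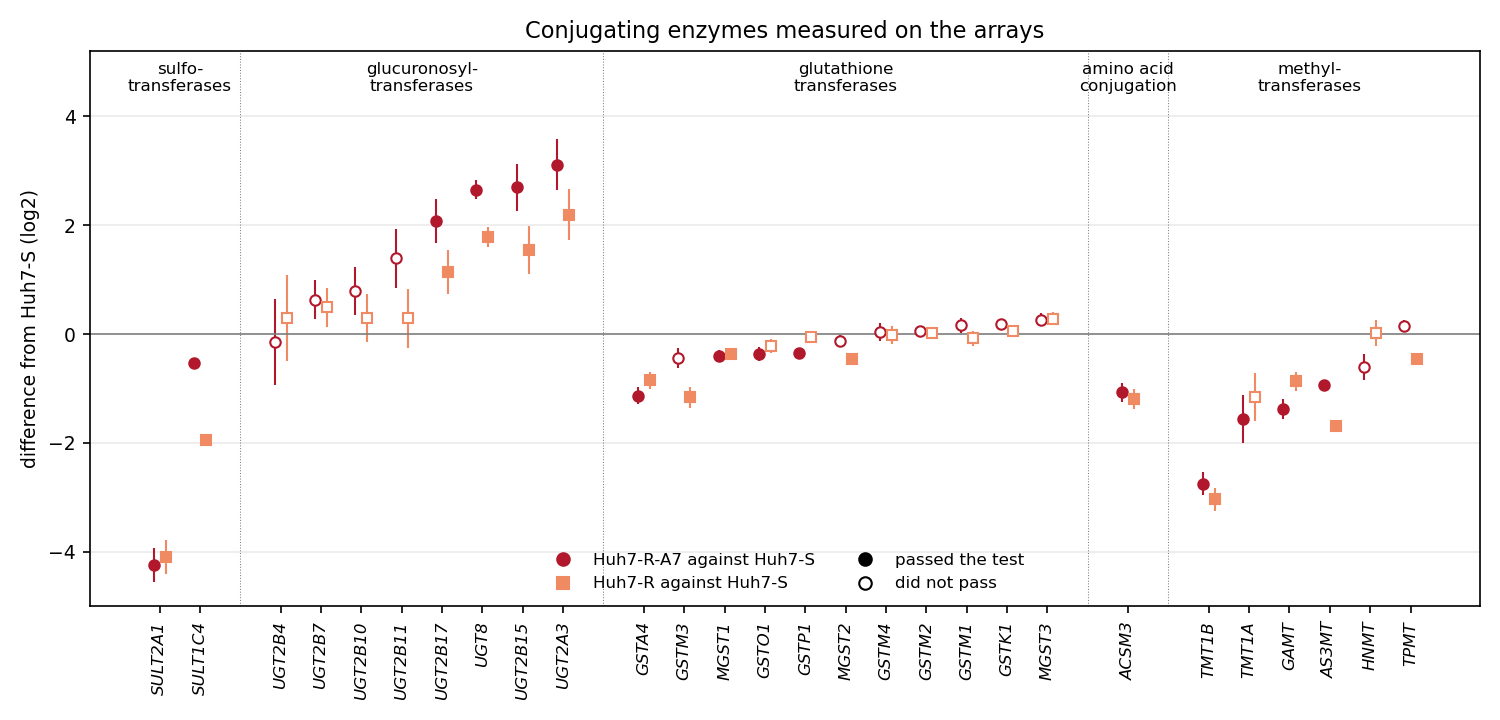
Difference from Huh7-S (log2, vertical axis) of the 28 measured conjugating enzymes by class, in Huh7-R-A7 (red circles) and Huh7-R (orange squares), with the standard error of the fit as bars and filled symbols for an adjusted p below 0.05. SULT2A1 is the lowest point in both lines, and GSTA4 is the lowest glutathione transferase in the clone. The points above 1 belong to the group labelled glucuronosyltransferases, which holds UGT8 by family only.

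Of 13 measured regulators of xenobiotic metabolism, 3 were higher and 7 lower in Huh7-R-A7, where 18% of all genes were called higher and 24.6% lower. In Huh7-R 3 were higher and 5 lower, where these shares were 19% and 26.2%. AHR, the aryl hydrocarbon receptor, was 2.6-fold higher in the clone and 2.74-fold higher in the pool (adjusted p = 5.5e-06 and 4.5e-06). NFE2L2, the gene of the antioxidant factor NRF2, was 2.46-fold lower in the clone and 1.58-fold lower in the pool (adjusted p = 1.1e-05 and 0.00029), and CEBPA, a hepatocyte factor, 2.21-fold and 1.81-fold lower (adjusted p = 0.0074 and 0.025). These are transcript signals and say nothing of the activity of the factors.

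The hepatocyte markers were lower on the same arrays as SULT2A1 and GSTA4. Of 8 measured, 6 were lower in Huh7-R-A7 and none higher, and 7 were lower and 1 higher (FGB) in Huh7-R, where 24.6% and 26.2% of all genes were called lower. FGB differed by 1.63 in the clone, which did not pass (adjusted p = 0.058), and without Huh7-S replicate 1 it was higher there by 2.38 (adjusted p = 0.00052). Their mean log2 signal per array ranged from 10.96 to 11.95 in Huh7-R-A7, 11.74 to 12.31 in Huh7-R and 12.91 to 13.89 in Huh7-S. AFP, which is in this list though it is an oncofetal gene, differed by -3.14 in the clone. APOB differed there by -3.25 and APOH by -3.33, and APOA1 and SERPINA1 had resistant means below the noise limit. In Huh7-S replicate 1 the median deviation of the hepatocyte markers from the other parental arrays was 0.86, beside 0.03 over all genes. Other markers deviated on that array too: the leukocyte marker LYZ was 4.05 above the other parental arrays. The bile duct markers EPCAM and KRT19 were 2.17 and 1.52 below them. The 2 stromal markers measured, COL1A2 and LUM, were higher in both lines, where 18% of all genes were called higher in the clone and 19% in the pool. Their mean per array was 7.73 to 7.90 in Huh7-R-A7, 8.32 to 8.61 in Huh7-R and 5.28 to 5.48 in Huh7-S. Both genes lay below the noise limit on all 3 Huh7-S arrays. They are therefore in the filtered table only through their resistant arrays, and the other listed stromal markers were not in it. Of the bile duct markers 3 were measured. SOX9 was lower in both lines (-2.95 in the clone and -2.39 in the pool), EPCAM was higher in the pool (1.57, adjusted p = 0.048) and did not pass in the clone (1.19, adjusted p = 0.12), and KRT19 passed in neither (0.67 and 0.65). Without Huh7-S replicate 1, EPCAM differed by 0.85 in the pool (adjusted p = 0.012) and 0.47 in the clone (adjusted p = 0.098). KRT19 then differed by 0.17 in the clone and 0.14 in the pool, and SOX9 by -2.99 and -2.44. No endothelial marker was in the table, and of the leukocyte markers LYZ alone, which did not pass. The part of these markers in the SULT2A1 and GSTA4 results was not tested.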

How the data were processed

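RNA of 3 arrays per line was hybridised to Affymetrix transcriptome arrays. The authors deposited log2 signals made by RMA in Affymetrix Expression Console, per the labels. Neither its version nor a genome build was given in the sources used here. The table held 11013 probe sets, with array medians of 8.22 to 8.38. No probe set was under log2 6 on more than 85% of arrays, the filter stated in the study's methods. Counts and shares are therefore of genes that passed this filter, and a gene low in most arrays is present only through the arrays where it was high. Of these, 9851 had 1 gene symbol, 624 several and 538 none here, and 77 symbols were updated. Probe sets of 67 genes with more than 1 were averaged, giving 9784 genes. Fits used limma 3.58.1 in R 4.3.3 (lmFit, eBayes with trend, all 9 arrays, group as the term, 6 residual degrees of freedom), with two-sided p-values adjusted by Benjamini-Hochberg over all genes and a threshold of 0.05. Where a group mean was below log2 6, the fold is a bound from the brighter mean to the dimmer one with its arrays set to at least 6. Levels were not compared between probe sets of different genes. The number of arrays limits the precision.

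The text names the 6 chosen genes, up to 3 members of each other list with the largest difference in the clone against the parent, conjugating enzymes that passed with a difference of at least 1, and the 3 most similar profiles of each gene. PAPSS1, HNMT, MGST2, GSTP1, UGT2B4, UGT2B7, UGT2B11, GUSB, FGB, APOA1 and SERPINA1 fall outside this rule and were named after their values were seen. The genes, lists and motifs were chosen with earlier results of these data known. Promoters came from RefSeq (GRCh38.p14) by symbol, and all 4 measured genes matched. Same-numbered clone and pool arrays deviated together from the means of their lines (r = 0.6, 0.49 and 0.42 across genes). In both lines replicate 1 correlated less with the others (0.9932 to 0.9942) than these did with each other (0.9976 in the clone and 0.9974 in the pool). Deviations from a mean of 3 arrays sum to zero, so a distinct replicate 1 in both lines could alone give such values. Pairing by replicate number is therefore not established. Between Huh7-S and the resistant lines these values lay between -0.21 and 0.1. Alternatives were each array left out, other scalings, array weights, the replicate block and stricter thresholds. The tests were checked on data simulated with independent noise of the same spread on every array. Those data held no outlying array, no shared deviations and no equal values, so the check does not cover these features. Tables and figures were made in Python 3.11.15 (pandas 2.3.3, matplotlib 3.10.9).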

Additional observations from a re-analysis of the deposited data

Results flagged for a closer look

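The differences of Huh7-R-A7 and of Huh7-R from their shared Huh7-S arrays were set against each other for the 28 measured conjugating enzymes, and for 5 of them the effect in the clone differed from that in the pool by the limma test of that difference (17.9%, beside 8.63% of all genes). TPMT was among them, at 0.59 on the log2 scale (adjusted p = 0.015), with 3 of 3 clone arrays above all pool arrays. SULT1C4 differed by 1.41, UGT8 by 0.87 and AS3MT by 0.75, each higher in the clone. GSTP1 differed by -0.28 (adjusted p = 0.047), lower in the clone. The parental arrays cancel in this difference, so it is the same clone against pool comparison as reported above and adds no further support. With 3 arrays in a line, no single array was tested as an outlier.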

How the results depend on the processing

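Over 12 differences of the 4 genes and 262 comparisons with an alternative, 238 kept their direction and their side of the threshold. SULT2A1 and GSTA4 passed against Huh7-S in both resistant lines under every alternative in which they were tested (genes with a mean under log2 6 were left out in 1, which dropped SULT2A1), with SULT2A1 in the clone between -4.5 and -2.1 (-2.1 with signals below log2 6 set to 6, an alternative chosen after seeing the data) and GSTA4 in the clone between -1.23 and -0.83. TPMT stayed lower in the pool than in the parent, between -0.53 and -0.32. In the clone against the parent it passed, higher, in fits without Huh7-S replicate 1 (0.28), with replicates 2 and 3 alone (0.28) and with array weights (0.24). GSTO1 in the pool passed with array weights (-0.38, adjusted p = 0.01). The clone against pool difference of SULT2A1, which is below the noise limit, lay between -0.39 and 0.00 when each array was left out and turned to 0.08 with replicates 2 and 3 of each line and to 0.06 with array weights. The 1 of 4 genes called between clone and pool (TPMT) ranged from 0 to 1 when each array was left out and was 0 at an adjusted p below 0.01. The 5 conjugating enzymes called in that comparison ranged from 2 to 7 when each array was left out, and were 12 with replicates 2 and 3, 13 with array weights and 2 at an adjusted p below 0.01, where the share of all genes called was 18.5%, 25.3% and 3.36%, beside 8.63% in the reported fit. The replicate block changed no call of the 4 genes (TPMT in clone against pool, adjusted p = 0.021), and with the block on the 6 resistant arrays alone, a fit added after seeing the data, 12 conjugating enzymes passed, with 18.6% of all genes. The cause of these shifts was not tested. With signals below the noise limit, the size of the SULT2A1 fall beyond its bound could not be measured.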
